A study of Mus musculus with 30 samples.

Results

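Astrocytes are the glial cells that surround spinal neurons, and 10 genes that mark them or carry out their main tasks were examined here: Fabp7, Gfap, Aqp4, Slc1a2, Slc1a3, Aldoc, Apoe, Clu, S100b and Glul. Every array feature annotated to one of these genes, by its symbol or a synonym, was taken. Of the 10 genes, 9 had at least 1 probe set (a group of short probes for 1 transcript), and together they had 14 of the 12422 probe sets tested. Slc1a3, the glutamate transporter GLAST, was not measured and was not analysed further. Among the 8251 genes with a probe set annotated to them alone, the 9 measured astrocyte genes are a small set. The rule that names them uses gene function and no measured value, but the set was proposed with earlier results of these data known.

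The samples were 3 pools of motoneurons, each cut by laser capture from the spinal cords of the same 5 adult sham-operated mice, with no other operation, genotype or strain named in the labels. The intermediolateral column (IML) holds autonomic preganglionic motoneurons, and the lateral (LMN) and medial (MMN) pools are somatic motoneurons, which drive skeletal muscle. For each animal and pool, 400 captures gave 1 RNA sample, which was divided in 2, amplified in a double protocol and hybridised to 2 Affymetrix arrays, so the 30 arrays are 15 samples. Values are log2 intensities averaged over the 2 arrays, each n is a number of animals, and the number of animals limits the precision. Array medians lay between 131.6 and 145.7 on the linear scale, and the 2 arrays of a sample differed by a median of 0.12 (log2).

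Astrocytes take up glutamate from synapses through Slc1a2 (GLT-1) and Slc1a3, and Glul (glutamine synthetase) turns it into glutamine. Gfap forms their intermediate filaments, Aqp4 is their water channel, S100b is a calcium-binding protein and Aldoc is their aldolase. Apoe and Clu are secreted carriers of lipids, and Fabp7, the brain fatty acid binding protein, carries long-chain polyunsaturated fatty acids and marks radial glia as well as astrocytes. A laser capture of a motoneuron soma can take along processes of the glia that touch it. Fewer cells of a type and less RNA per cell cannot be told apart in such samples.

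The upstream regions of Fabp7, Apoe and Gfap are shown because these genes had the 3 largest differences among the 14 probe sets. Each sequence is the 250 bases before the gene's first listed RefSeq start (GRCm38.p6), printed 5′ to 3′ on the gene's strand. Capitals mark 5 short motifs searched on both strands: the TATA box (TATAAA), the CCAAT box (CCAAT), the half-site of NFI factors (TTGGC), the core of RBPJ, the DNA-binding partner of Notch (TGGGAA), and the GC box (GGGCGG). The letters of CCAAT on one strand and TTGGC on the other can overlap.
Fabp7, chr10:57784673-57784922, plus strand: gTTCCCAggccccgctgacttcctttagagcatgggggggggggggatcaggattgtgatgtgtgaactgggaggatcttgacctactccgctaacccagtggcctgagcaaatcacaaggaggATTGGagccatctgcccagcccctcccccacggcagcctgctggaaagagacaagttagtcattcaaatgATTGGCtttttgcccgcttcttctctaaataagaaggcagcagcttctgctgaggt
Apoe, chr7:19699189-19699438, minus strand: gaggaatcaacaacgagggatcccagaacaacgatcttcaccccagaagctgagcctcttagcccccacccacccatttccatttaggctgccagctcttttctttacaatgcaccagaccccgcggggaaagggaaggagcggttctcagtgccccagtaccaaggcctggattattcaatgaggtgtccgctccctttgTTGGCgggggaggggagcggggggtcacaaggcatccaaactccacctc
Gfap, chr11:102897201-102897450, minus strand: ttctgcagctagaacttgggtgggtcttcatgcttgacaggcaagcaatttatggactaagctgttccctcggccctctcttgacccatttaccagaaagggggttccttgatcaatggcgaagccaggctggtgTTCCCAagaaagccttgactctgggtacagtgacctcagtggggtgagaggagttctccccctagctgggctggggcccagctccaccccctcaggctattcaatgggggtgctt

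In the Fabp7 window, the CCAAT letters stood on the minus strand from -126 to -122 and from -56 to -52 relative to the start. The second of these overlapped an NFI half-site from -55 to -51, and the RBPJ core letters began at -249. The Apoe window held a single motif, an NFI half-site from -49 to -45, and the Gfap window only the RBPJ core letters from -115 to -110. Among the windows of 27025 genes, 34.5% held CCAAT, 41.9% the NFI half-site, 21.5% the RBPJ core, 32.9% the GC box and 13.0% the TATA box. None of the 3 windows held TATAAA or GGGCGG. No motif was present in all 3 windows. Windows were taken for 8 of the 10 genes. None was listed for Clu, and starts on chromosome 18, where Aqp4 lies, were left out. Apoe has 3 starts in the table, and the third also held an NFI half-site, while the second held TATAAA and no other motif.

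Autonomic and somatic motoneuron captures were compared first, by setting IML against the mean of LMN and MMN within each animal. Fabp7 and Apoe were higher in IML, by 2.46-fold and 1.73-fold, and no astrocyte gene was lower at an adjusted p under 0.05. In limma with the animal as a block, 2 of the 14 probe sets were thus called higher, where 3.44% of all probe sets were higher and 2.09% lower. Over the 9 genes, each taken by its brightest probe set, the median difference was 0.02 (log2) and 5 of 9 were above 0, against a median of -0.01 over all 8251 genes. At an unadjusted p under 0.05 there were 5 probe sets, 1 each of Fabp7, Apoe and Gfap and both of Clu. Of all 12422 probe sets, 2574 had such a p. Fabp7 ranked 21 from the highest among the 12422 differences and Apoe 109.

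Fabp7 stood at 10.62, 11.18, 10.10, 11.54 and 10.45 in the IML samples of animals 1 to 5 (log2 intensity, probe set 98967_at). In LMN it stood at 8.65, 9.91, 9.47, 9.11 and 8.95, and in MMN at 8.59, 10.94, 10.04, 9.10 and 10.01. Every IML sample was above every LMN sample, while the MMN sample of animal 2 was higher than 3 of the IML samples. The means were 10.78 ± 0.58 in IML, 9.22 ± 0.49 in LMN and 9.74 ± 0.91 in MMN (SD, n = 5), which correspond to geometric mean intensities of 1757, 596 and 853.

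The difference between IML and the somatic mean was 1.30 ± 0.27 (log2, SE, n = 5), with a limma adjusted p of 0.0205. It was positive in 5 of 5 animals but uneven, at 2.00, 0.76, 0.34, 2.43 and 0.97, so animals 1 and 4 differed most. Of all probe sets, 7.78% were higher in 5 of 5 animals in this comparison. Without animal 1, 4 or 5 the adjusted p rose to 0.0695, 0.0617 or 0.0699, and the difference lay between 1.02 and 1.54 over all 5 omissions. Against LMN alone Fabp7 was 2.95-fold higher (1.56 ± 0.31, limma adjusted p = 0.0126), where 5.46% of all probe sets were called higher and 3.53% lower. That call was lost without animal 5 (adjusted p = 0.0534).

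Apoe, the lipid carrier that astrocytes secrete and that macrophages also make, stood at 12.22, 12.73, 12.22, 13.07 and 12.51 in IML (log2 intensity, probe set 95356_at). The LMN values were 11.02, 12.06, 11.32, 11.49 and 11.39, again all below every IML value. The MMN values, 12.33, 12.73, 11.55, 12.30 and 11.37, overlapped those of both other pools. The means were 12.55 ± 0.36, 11.46 ± 0.38 and 12.06 ± 0.57 (SD, n = 5).

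IML exceeded the somatic mean by 0.79 ± 0.16 (log2, SE, n = 5; limma adjusted p = 0.0184) and LMN by 1.09 ± 0.18, a 2.13-fold difference (limma adjusted p = 0.0055). Without the animal as a block the adjusted p of the comparison with the somatic mean was 0.140 for Apoe and 0.114 for Fabp7, and that with LMN 0.054 and 0.066. Animals 1 to 5 differed by 0.54, 0.33, 0.78, 1.17 and 1.12 in the first comparison. Without animal 3, 4 or 5 that adjusted p rose to 0.0794, 0.0763 or 0.0681, and the difference lay between 0.69 and 0.91 over all 5 omissions. The call against LMN held in all 5 omissions. The MMN sample of animal 5 is less certain for Apoe than the others, because its 2 arrays gave 10.69 and 12.06. This was also the sample whose arrays differed most for Aqp4 102704_at (by 1.67) and Clu 95286_at (by 0.82). A second Apoe probe set, 161321_i_at, was dim, at 5.31 to 5.73 in IML, and gave no such difference (-0.003 ± 0.056, 95% interval -0.13 to 0.12).

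Fabp7 and Apoe both had all IML samples above all LMN samples, which held for 2.11% of all probe sets. Neither had all IML values above all somatic values, which held for 0.177% of probe sets. For these 2 genes more of the total sum of squares lay between pools (53.0% and 55.3%) than between animals (24.9% and 28.2%). The same held for Glul at 161826_r_at, which was not called (46.6% between pools and 35.0% between animals). Over all probe sets the medians were 10.2% between pools and 57.6% between animals.

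**Figure D1:**
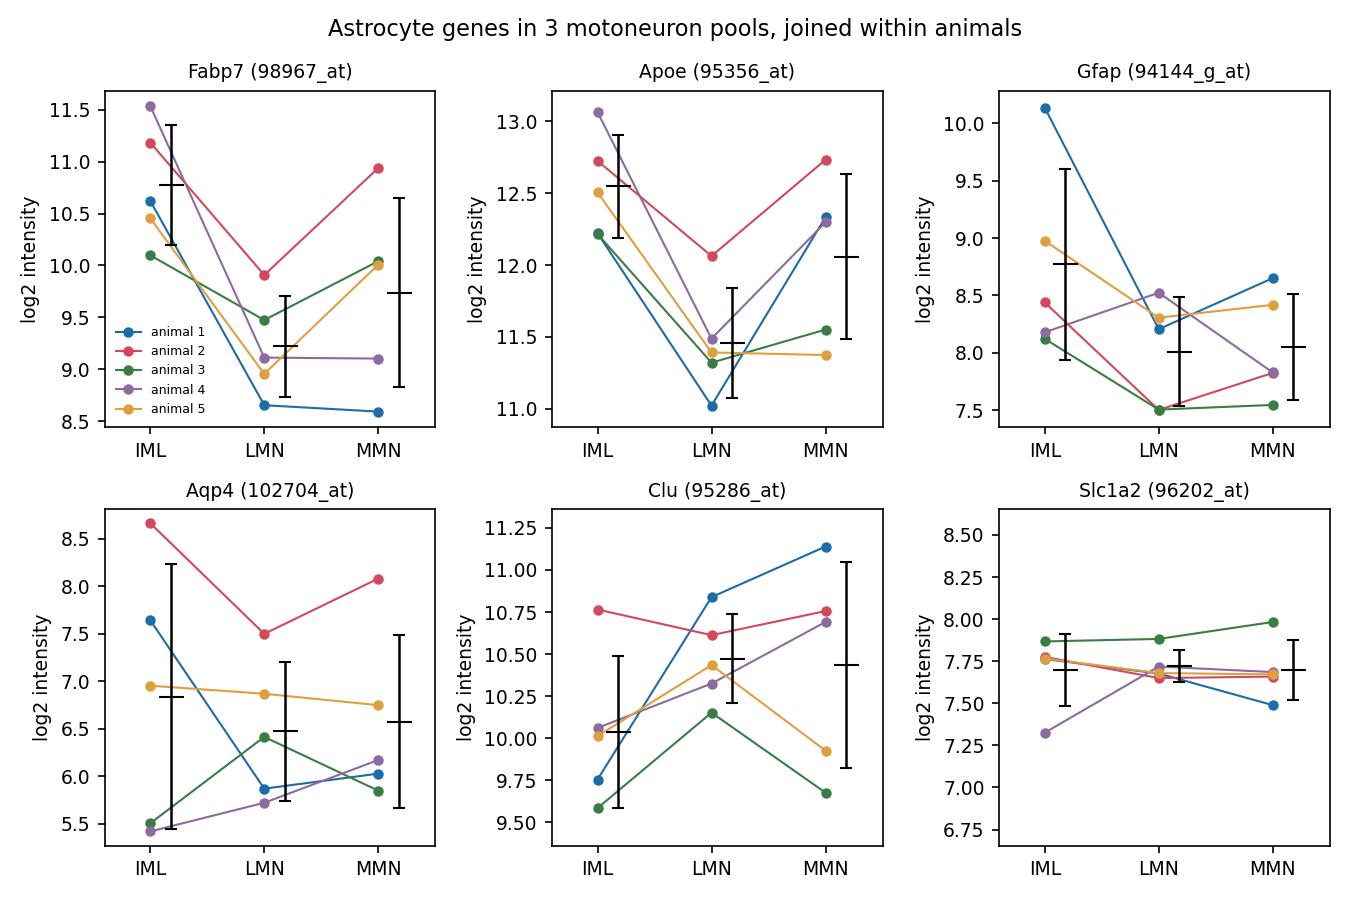
Log2 intensity of 6 astrocyte genes, by their brightest probe set, in IML, LMN and MMN, each panel on its own axis range. Coloured points are animals, joined across the pools, and the black marks are means with SD over 5 animals. The 5 IML values of Fabp7 (10.10 to 11.54) and of Apoe (12.22 to 13.07) lie above all 5 LMN values, while Aqp4 separates by animal and Slc1a2 lies between 7.33 and 7.98.

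Gfap, the filament protein that rises in reactive astrocytes, had the third largest difference. Its brighter probe set, 94144_g_at, gave 10.14, 8.44, 8.12, 8.18 and 8.98 in IML, 8.21, 7.50, 7.51, 8.52 and 8.31 in LMN, and 8.65, 7.83, 7.55, 7.83 and 8.42 in MMN. The groups overlapped, and the IML sample of animal 1 was far above the other samples. IML less the somatic mean was 0.74 ± 0.20 (log2, SE, n = 5; limma adjusted p = 0.0533), which does not pass the threshold. The animals differed by 1.71, 0.77, 0.60, 0.00 and 0.61. Without animal 4, whose difference was near 0, the probe set passed (adjusted p = 0.0272). The dimmer probe set 94143_at had a difference of 0.16 ± 0.08 (adjusted p = 0.287).

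Aqp4, the water channel of astrocyte endfeet, differed more between animals than between pools. Probe set 102704_at gave 7.64, 8.67, 5.50, 5.42 and 6.95 in IML, 5.87, 7.50, 6.41, 5.72 and 6.87 in LMN, and 6.03, 8.08, 5.85, 6.17 and 6.75 in MMN. Animal 2 was the highest in each pool, and the animal means spanned 2.31 (log2) against 0.36 for the pool means. Of its sum of squares, 75.4% lay between animals and 2.58% between pools. Most of the spread lay between animals for the median probe set too (57.6%, with 10.2% between pools). The other Aqp4 probe set, 102703_s_at, also had animal 2 highest in each pool, with 80.8% between animals. IML less the somatic mean was 0.31 ± 0.29 and 0.19 ± 0.11 for the 2 probe sets (adjusted p = 0.608 and 0.374), and 3 of 5 animals were higher for each.

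Neither measured glutamate gene passed the test in any comparison. Slc1a2, the main glutamate transporter of astrocytes, was at 7.70 ± 0.21 in IML, 7.72 ± 0.09 in LMN and 7.70 ± 0.18 in MMN (log2, SD, n = 5). Its difference of -0.01 had a 95% interval of -0.17 to 0.15. No background level was set, so this flat value cannot be told from a probe set that does not respond. For Glul, probe set 161826_r_at gave 9.34 ± 0.09, 9.49 ± 0.09 and 9.33 ± 0.07. IML less LMN was -0.15 ± 0.05 for this probe set (adjusted p = 0.102), with all 5 animals lower in IML, as for 10.6% of all probe sets. LMN less MMN was 0.16 ± 0.05 (adjusted p = 0.247), with LMN higher in 5 of 5 animals, as for 8.62% of all probe sets. The second Glul probe set, 94852_at, was noisy: in the LMN sample of animal 4 the 2 arrays gave 9.55 and 7.29. Its difference between IML and the somatic mean was -0.20 ± 0.18 (95% interval -0.61 to 0.20).

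Clu, S100b and Aldoc did not pass the test in any comparison. Clu, the secreted chaperone clusterin, had differences below 0 at both probe sets. Probe set 161294_f_at gave 10.40, 9.98, 9.79, 10.06 and 9.82 in IML against 10.62, 9.94, 10.04, 10.68 and 10.51 in LMN and 10.80, 10.15, 9.93, 10.26 and 10.21 in MMN. IML less the somatic mean was -0.30 ± 0.09 (adjusted p = 0.0702), and all 5 animals were lower in IML, as for 7.94% of all probe sets. Leaving out single animals gave adjusted p-values from 0.048 to 0.224, and only without animal 2 did it pass. At 95286_at it was -0.42 ± 0.17 (adjusted p = 0.180).

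S100b was at 9.95 ± 0.36 in IML, 10.26 ± 0.14 in LMN and 10.13 ± 0.18 in MMN (log2, SD, n = 5). Its difference from the somatic mean, -0.24 ± 0.11, had a 95% interval of -0.49 to 0.004 and 1 of 5 animals higher in IML. Aldoc, the aldolase of astrocytes, was at 11.77 ± 0.35, 11.63 ± 0.53 and 11.88 ± 0.46. Its difference of 0.02 had an interval of -0.25 to 0.30. Of its sum of squares, 73.1% lay between animals, against a median of 57.6% over all probe sets. Apoe and Clu, both lipid carriers, thus had differences of opposite sign, of which the Apoe difference passed the test.

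**Figure D2:**
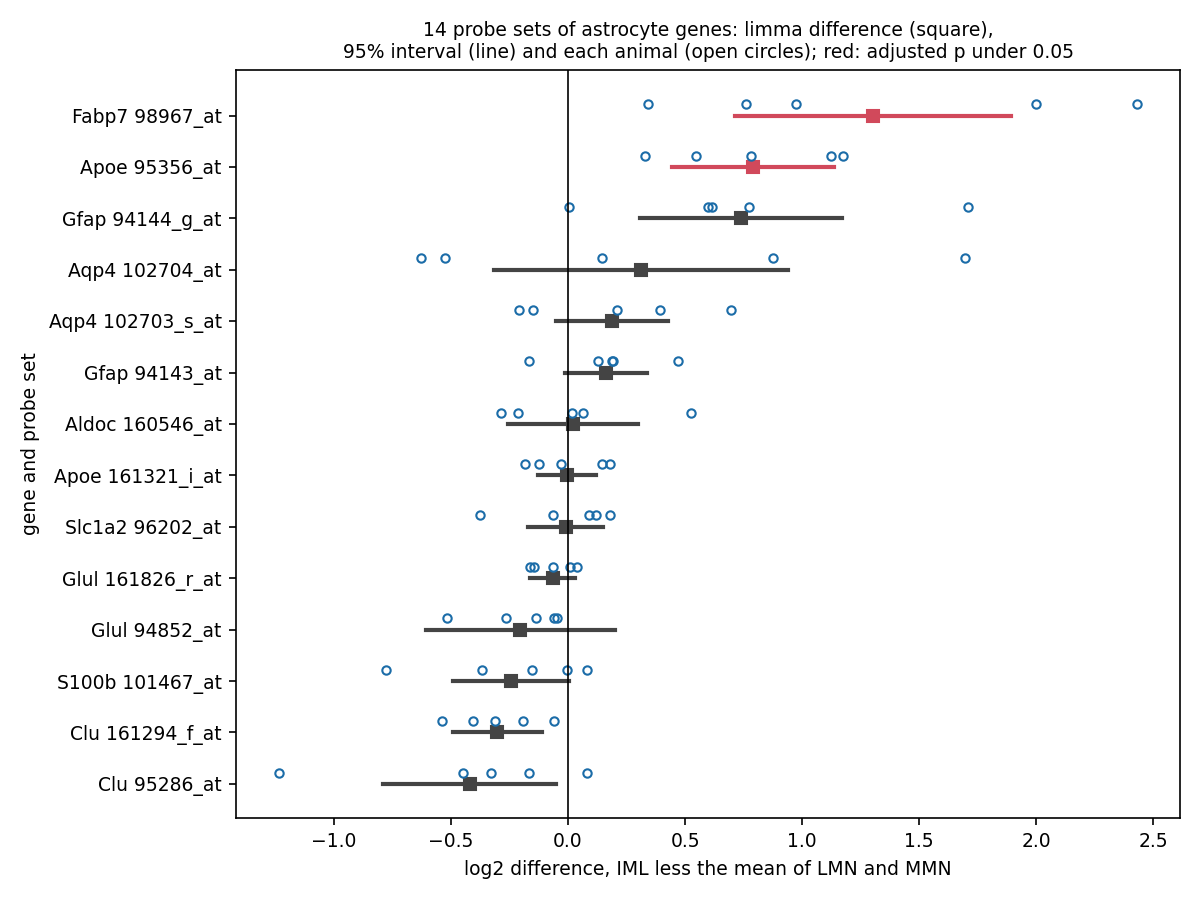
Log2 difference between IML and the mean of LMN and MMN for each of the 14 probe sets. Squares are limma estimates, lines 95% intervals and open circles the 5 animals, and red marks an adjusted p under 0.05. Fabp7 (1.30) and Apoe 95356_at (0.79) are red, Gfap 94144_g_at (0.74) is next, and both Clu probe sets lie below 0.

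Against MMN, 0 of the 14 probe sets passed in limma, where 0.346% of all probe sets did. An unadjusted p under 0.05 was found for 4 of the 14 (Fabp7, Apoe, Gfap and Clu, with 1 probe set each) and for 1533 of all 12422. Fabp7 was higher in IML by 1.04 ± 0.31 (log2, SE, n = 5; adjusted p = 0.220), in 5 of 5 animals. Apoe was higher by 0.49 ± 0.18 (adjusted p = 0.308), in 3 of 5, and Gfap 94144_g_at by 0.72 ± 0.23 (adjusted p = 0.250), in 5 of 5. Of all probe sets, 4.81% were higher than in MMN in 5 of 5 animals. These comparisons share the IML samples with the one above.

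The lateral and medial somatic pools were compared next, and 0 of the 14 probe sets passed, where 0.0564% of all did. At an unadjusted p under 0.05 there were 2, 1 of Apoe and 1 of Glul, where 1447 of all 12422 probe sets had such a p. Apoe was lower in LMN than in MMN by 0.60 ± 0.18 (log2, SE, n = 5; adjusted p = 0.234), in 4 of 5 animals, and Fabp7 by 0.52 ± 0.31 (adjusted p = 0.562), in 3 of 5. For both genes the means thus ran from LMN through MMN to IML, and the neighbours LMN and MMN, and MMN and IML, did not differ at the threshold.

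Other astrocyte genes were read from a list of further markers and functions, of which 29 were measured. Between IML and the somatic mean, 3 were higher, 1 was lower and 25 did not pass, with a median difference of 0.03 (log2). Of all 8251 genes, 330 were higher and 189 lower in this comparison, which is the background for the lists that follow. The transcriptional inhibitor Id4 was higher by 0.36 ± 0.07 (adjusted p = 0.0203), the protease inhibitor Cst3 by 0.40 ± 0.09 (adjusted p = 0.0248) and the lipid phosphatase Plpp3 by 0.48 ± 0.12 (adjusted p = 0.0439), each in 5 of 5 animals. The secreted protease Htra1 was lower, with a difference of -0.71 ± 0.15 (adjusted p = 0.0237), in 5 of 5. The gap junction gene Gja1 differed by 0.41 ± 0.11 (adjusted p = 0.0521). Against LMN, 5 of the 29 were higher, Gja1 and the angiotensinogen gene Agt included, and 1 was lower. In that comparison 520 of all 8251 genes were higher and 317 lower. Against MMN none passed in limma, where 24 of all 8251 genes were higher and 12 lower. An unadjusted p under 0.05 was found for 5 of the 29 and for 1146 of all 8251 genes.

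Of all 8251 genes, 330 were higher in IML than in the somatic mean and 189 lower. Of 22 genes known from reactive astrocytes, 5 were higher and none was lower (median 0.11). They were the ferroxidase gene Cp (0.89 ± 0.14), the cytokine receptor genes Osmr (1.18 ± 0.29) and Il6st (0.69 ± 0.13), the complement inhibitor Serping1 (1.10 ± 0.22) and the matrix gene Tnc (0.58 ± 0.13). Osmr was higher in 4 of 5 animals and the others in 5 of 5. These genes are also active in other cells, among them fibroblasts and endothelium.

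Among 20 radial glia and progenitor genes, to which Fabp7 is related by its developmental expression, 2 were higher and 1 was lower (median 0.05). Tnc is on this list too, Id3 was higher by 0.53 ± 0.13, and Nfib, a member of the NFI family, had a difference of -0.42 ± 0.10. Notch1 differed by 0.35 ± 0.09 (adjusted p = 0.0583) and Sox2 by 0.45 ± 0.17 (adjusted p = 0.144).

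Of 10 other fatty acid and retinoid binding proteins, the relatives of Fabp7, none passed in limma against the somatic mean (median 0.03). An unadjusted p under 0.05 was found for 4 of them and for 1913 of all 8251 genes. Fabp3, the heart form, had a difference of -0.52 ± 0.14 (adjusted p = 0.0564), and Fabp5 one of 0.07 ± 0.07 (adjusted p = 0.628). Against LMN alone Fabp3 was lower (-0.61 ± 0.16, adjusted p = 0.0399) and Crabp2 higher (0.77 ± 0.15, adjusted p = 0.0131).

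Among 25 genes of fatty acid uptake, synthesis and oxidation, 2 were higher and none lower (median -0.02). They were lipoprotein lipase, Lpl (1.15 ± 0.23, adjusted p = 0.0185), and the desaturase gene Scd1 (0.41 ± 0.06, adjusted p = 0.0065). Fads1, a desaturase of polyunsaturated fatty acids, differed by 0.40 ± 0.11 and Cpt1a, which brings fatty acids into mitochondria, by -0.52 ± 0.14 (adjusted p = 0.0521 and 0.0583). Of 15 apolipoprotein and lipid carrier genes, Lpl and the cholesterol exporter Abca1 (0.65 ± 0.17, adjusted p = 0.0472) were higher (median 0.04). Against LMN, Apod and Pltp were higher as well.

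Of 12 genes of the glutamate and glutamine cycle, 1 was lower, the neuronal glutamate transporter gene Slc1a1 (-0.54 ± 0.10, adjusted p = 0.0165), and none was higher (median 0.05). Of the relatives of S100b, 8 were measured. S100a6 (1.64 ± 0.39) and S100a13 (0.62 ± 0.16) were higher in IML, and 7 of the 8 had differences above 0 (median 0.51). Of 6 relatives of Aldoc and Aqp4, none passed in limma, and Aldoa differed by -0.18 ± 0.06 (adjusted p = 0.123). An unadjusted p under 0.05 was found for 1 of the 6 and for 1913 of all 8251 genes.

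Markers of some other cell types also differed between the pools. Of all 8251 genes, 330 were higher in IML than in the somatic mean and 189 lower. Of 15 meningeal and fibroblast markers, 9 were higher in IML than in the somatic mean and all 15 differences were above 0 (median 0.78). Their summed intensity ran from 23681 to 32878 in IML, from 9127 to 22668 in LMN and from 11545 to 36244 in MMN, and all 15 had means over the 15 samples above the median over probe sets (7.10). Of 13 microglia and macrophage markers, 7 were higher (median 0.33), with sums of 3026 to 5481 in IML, 2410 to 2814 in LMN and 2537 to 3451 in MMN. Of these 13, 6 had a mean over the 15 samples below 7.10. They included Aif1 and Itgam, and also Tyrobp (7.55) and Lyz2 (7.28), whose IML means were above 7.10.

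Of the 8 motoneuron markers measured, 3 were lower in IML, Nefh (-0.83 ± 0.09), Nefl (-0.34 ± 0.09) and Ret (-0.34 ± 0.07), and none was higher. Their summed intensity ran from 7546 to 11934 in IML, 13485 to 22364 in LMN and 11150 to 16441 in MMN. Slc18a3, the vesicular acetylcholine transporter that defines cholinergic neurons, was at 7.18 in IML, close to the median over probe sets, and Isl1 and Ret were below it in each pool. The IML sums were below all LMN sums and overlapped the MMN sums. The sums of the 29 other astrocyte genes overlapped between all 3 pools, at 21639 to 29352 in IML, 20374 to 25451 in LMN and 22307 to 28897 in MMN. Oligodendrocyte, endothelial and Schwann cell lists had 1 gene higher each (Gsn of 11, Vwf of 15 and Ncam1 of 5). The ependymal and interneuron lists had 1 lower each (Foxj1 of 5 and Calb2 of 9). Of all 8251 genes, 330 were higher and 189 lower. Ncam1 was also higher in IML than in MMN (0.87 ± 0.12, limma adjusted p = 0.0193), and which cells its transcript came from was not tested.

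Over animals 1 to 5 the average of the 15 meningeal and fibroblast genes differed by 0.57, 0.25, 1.22, 1.13 and 1.07 between IML and the somatic mean. For the microglia and macrophage markers the values were 0.60, 0.23, 0.67, 0.24 and 0.34. Fabp7 differed most in animals 4 and 1 and least in animal 3, where both marker means differed most. Apoe, at 0.54, 0.33, 0.78, 1.17 and 1.12, was lowest in animals 2 and 1 and higher in animals 3 to 5, as the meningeal and fibroblast mean was. The mean of the 29 other astrocyte genes differed by 0.18, 0.09, -0.02, -0.05 and 0.12.

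**Figure D3:**
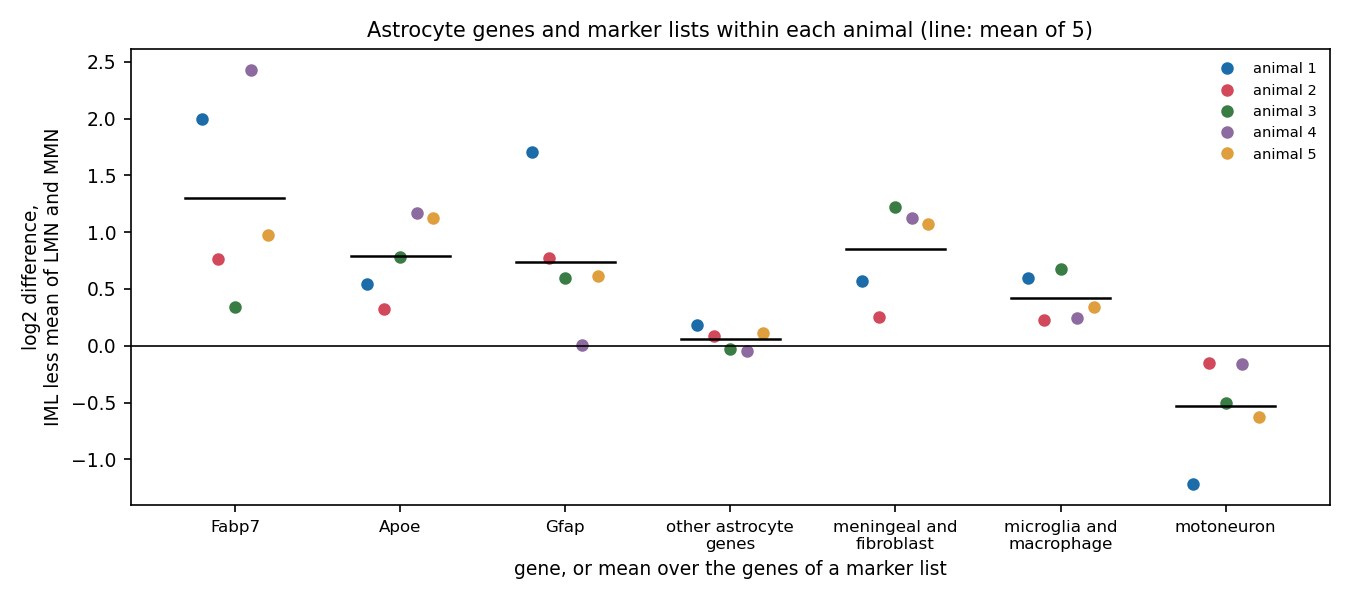
Log2 difference between IML and the mean of LMN and MMN within each of 5 animals, for 3 astrocyte genes and for the means of 4 marker lists. Coloured points are animals and black lines means. Fabp7 spans 0.34 to 2.43 and the meningeal and fibroblast markers 0.25 to 1.22, while the other astrocyte genes stay between -0.05 and 0.18.

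When each sample's average over the 15 meningeal and fibroblast genes entered limma as a covariate, the Fabp7 difference was 1.29 ± 0.66 and the Apoe difference 0.04 ± 0.29 (log2, SE). The Gfap difference at 94144_g_at was 1.21 ± 0.46 in that model. With the microglia and macrophage markers as covariate, the differences were 1.52 ± 0.64 for Fabp7, 0.80 ± 0.38 for Apoe and 0.03 ± 0.40 for Gfap. In either model 0 of all 12422 probe sets passed in any comparison, the members included (lowest adjusted p of these 3 genes = 0.764), and the errors of these 3 genes were larger than without the covariate. The 95% intervals were wide, from -0.18 to 2.77 for Fabp7 and from -0.62 to 0.69 for Apoe with the first covariate, and from -0.86 to 0.91 for Gfap with the second. Which cells the transcripts came from was not tested.

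**Figure D4:**
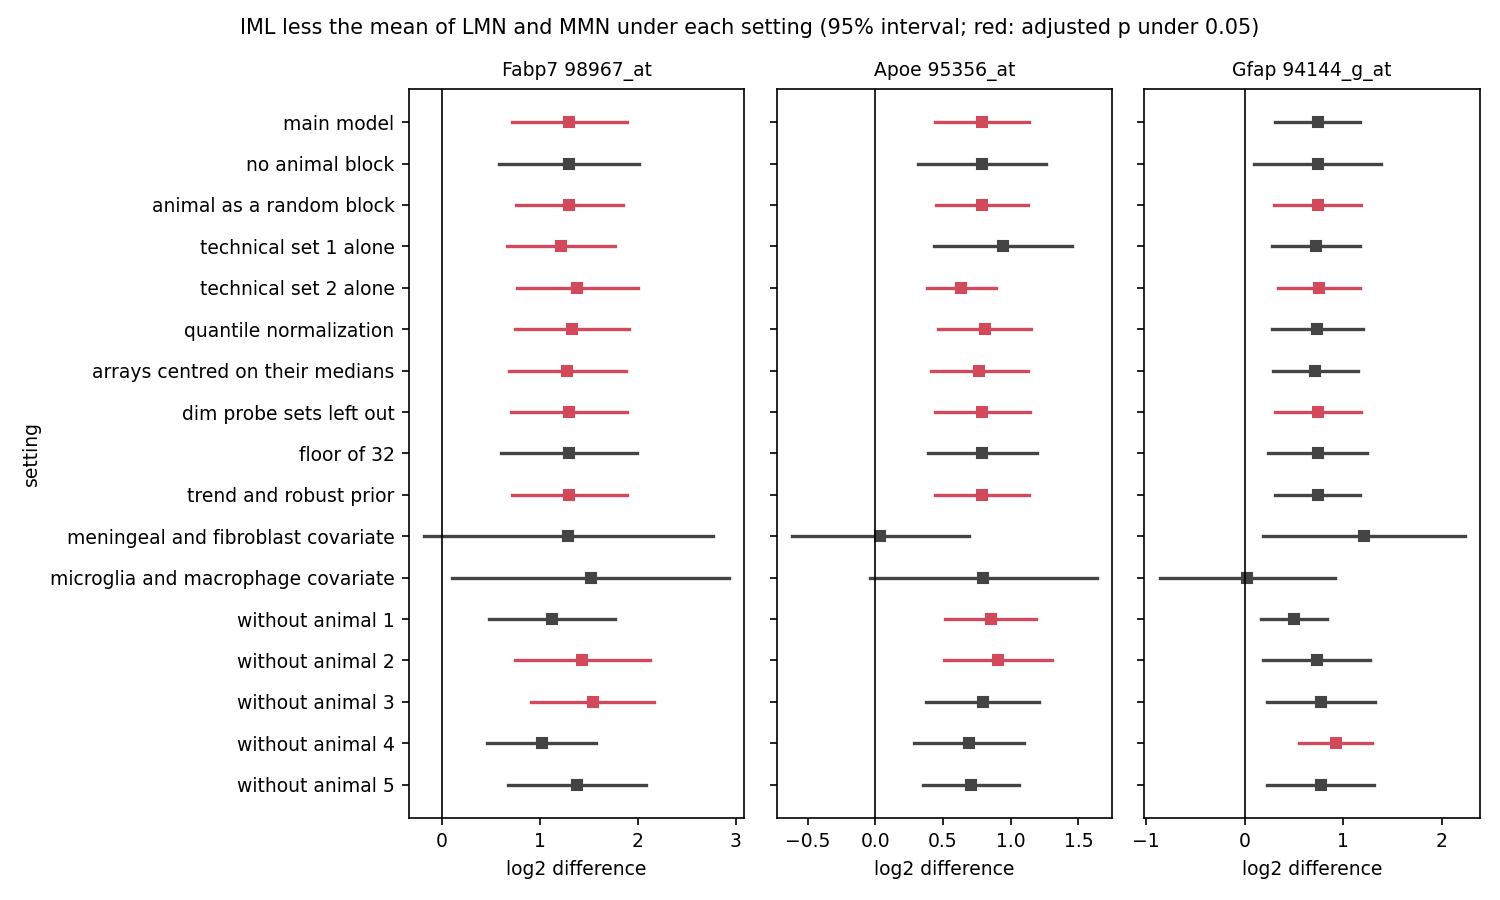
Log2 difference between IML and the mean of LMN and MMN for Fabp7, Apoe and Gfap under the main model and 16 other settings, with 95% intervals. Red marks an adjusted p under 0.05. The Fabp7 estimates lie between 1.02 and 1.54, the Apoe estimate is 0.04 with the meningeal and fibroblast covariate, and the Gfap estimate is 0.03 with the microglia and macrophage covariate, where the intervals are wide.

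Genes with the profile most like each astrocyte gene were found by Pearson's r over the 15 samples after each animal's mean was removed. These 15 points share animals, pools and the amplification, so r is a description. Fabp7 was most like Frzb (0.96), Ptprr (0.96), Glce (0.96), Vkorc1 (0.96) and S100a13 (0.96), a relative of S100b. Apoe was most like the collagen gene Col1a2 (0.96), then Tcn2 (0.95), Tmem176b (0.94), Gab1 (0.94) and the desaturase gene Fads1 (0.93). Gfap was most like Stxbp3 (0.95), Dlk1 (0.95), Scg2 (0.95), Qk (0.94) and Sypl (0.93).

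Clu was most like Bscl2 (0.95), the acetylcholinesterase gene Ache (0.93) and Serpina3n (0.92), S100b like Ythdf1 (0.94) and Glul like Dlx3 (0.93). The values were lower for Aldoc (Ptcd2, 0.89), Aqp4 (Slc30a3, 0.89) and Slc1a2 (Cox6b1, 0.88). Among the astrocyte genes themselves Fabp7 ran with Apoe (0.69) and Gfap (0.64) and against Clu (-0.75). Clu ran with S100b (0.66) and against Gfap (-0.72), while Aqp4 ran with Gfap (0.65). The 9 genes did not share one profile across the pools.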

How the data were processed

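Transcripts were measured on Affymetrix mouse arrays in 15 samples (5 animals, 3 motoneuron pools, 2 arrays each). The deposited values are linear intensities: per the labels, the authors normalized with R-pack and gave inverse logs. Which method that tool applied is not given in the sources used here, and without detection calls no background level was set. Double amplification of little RNA adds spread between targets, which the 2 arrays of a sample show.

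Of 12488 probe sets, 66 controls were left out. Among the 12422 tested, the platform annotation gave a single symbol for 10833, several for 396 (tested but not named) and none for 1193. A RefSeq table supplied 10817 of the symbols through the gene identifier. In the lists, each gene is represented by its brightest probe set. A suffix such as _f_at, _g_at or _s_at marks probe sets that may also detect related transcripts. The suffixes _i_at and _r_at mark other limits of probe design.

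Intensities were converted to log2 without an offset, and each sample is the average of its 2 arrays. The model, fitted in limma 3.58.1 (R 4.3.3) over the 15 samples, had terms for pool and animal. It used eBayes, two-sided tests and Benjamini-Hochberg adjustment across the 12422 probe sets at 0.05. The animal was a block because, per the labels, each mouse gave all 3 pools. Same-animal samples also shifted together relative to their pools (15 of 15 pairs, lowest r 0.288). The fit was tested on simulated data with known changes.

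All 14 probe sets of the 9 genes are reported. From each of the 17 other lists the counts are given, with the called genes and some of those with the smallest p. The members and lists were chosen with earlier results of these data known. For likeness, the 5 closest genes were ranked among those whose mean reached the median of all probe sets, and 1 to 5 are named. Promoter windows are from RefSeq (GRCm38.p6).

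The alternatives were no animal block or a random one, each array set alone, quantile normalization or median centring, a filter on dim probe sets, a floor of 32, a trended robust prior, a threshold of 0.01, marker covariates, only the pools compared, and each animal left out.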

Additional observations from a re-analysis of the deposited data

Results flagged for a closer look

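Each of the 42 groups of 5 animals (14 probe sets in 3 pools) was examined for a single sample whose gap to its nearest neighbour exceeded 0.71 of the group's range, which chance alone gives in about 1 of 20 groups. There were 5 such samples, and 4 of them were in IML. Aqp4 at 102703_s_at stood at 6.51 in the MMN sample of animal 2, against 5.59 to 5.80 in the other animals, and animal 2 was also the highest for Aqp4 in the other pools. Slc1a2 was at 7.33 in the IML sample of animal 4, against 7.76 to 7.87. Both remaining genes were set apart upward in IML. For the dim Apoe probe set 161321_i_at, animal 1 stood at 5.73 against 5.31 to 5.39. For Glul, animal 1 stood at 9.50 against 9.28 to 9.32 at 161826_r_at, and animal 5 at 8.42 against 7.29 to 7.54 at 94852_at. None of these samples belongs to the Fabp7 probe set or to the brighter probe sets of Apoe and Gfap.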

How the results depend on the processing

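Between IML and the somatic mean, 2 probe sets of the astrocyte genes passed, and the count was 0 with no replicate block (the animal left out of the model), with a floor of 32, at a threshold of 0.01 and with either marker list as a covariate, and 1 with array set 1 alone. Leaving out each animal gave counts from 0 (without animal 5) to 3 (without animal 2). Over all 12422 probe sets, 427 were higher and 259 lower in the main fit. With no replicate block these were 30 and 16, with the floor 173 and 109, and at 0.01 105 and 41. They were 207 and 97 with array set 1 alone, and 0 with either covariate. Without animal 5 they were 114 and 50, and without animal 2 465 and 185. Against LMN the count of 2 became 0 with no replicate block and with either covariate, 1 at a threshold of 0.01, and 4 with arrays centred on their medians or dim probe sets left out, and it ran from 1 (without animal 5) to 3 (without animal 2 or 4) when single animals were omitted. Over all probe sets, 678 were higher and 438 lower against LMN, and 100 and 35 with no replicate block. At 0.01 these were 213 and 91, and with arrays centred on their medians 628 and 560. With dim probe sets left out they were 479 and 363 of 6211, and without animal 5 248 and 123. Testing fewer probe sets changes the adjusted p by construction, and a stricter threshold changes only which probe sets pass. The causes of the other changes were not tested. The remaining settings gave counts of 2 or 3. Against MMN, and between LMN and MMN, the count was 0 in every fit that was run. Of 978 differences recomputed for the 14 probe sets under 18 settings, 70 had the opposite sign, 21 of them under a covariate, and 0 of the 70 passed in either fit.

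Precision is limited by the 5 animals and by a normalization whose method is not stated. For the dim probe sets of Aqp4, Gfap (94143_at) and Apoe (161321_i_at), with means below 7.10, a flat value cannot be told from background, since no detection calls were used. The value 7.10 is the median over probe sets and not a background level. The same limit thus holds for Slc1a2 (96202_at, mean 7.71) and Glul 94852_at (mean 7.75). The covariates vary with the pools, and the fits that hold them have wide intervals.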
